A study of Mus musculus with 4 samples.

Results

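The 10 genes described here encode 6 matrix metalloproteinases (Mmp2, Mmp3, Mmp9, Mmp10, Mmp13 and Mmp14), 3 tissue inhibitors of metalloproteinases (Timp1, Timp2 and Timp3) and the collagen-binding protein Sparc. They were taken by name from 26172 genes listed over both libraries. All 10 had a unique molecular identifier (UMI, a tag that marks 1 captured RNA molecule) in at least 1 library, and 7 had the 100 summed UMIs needed to compare the libraries. Levels were read over deep barcodes, that is, droplets with 5000 or more UMIs and no UMI of the T cell genes Cd3e, Cd3d and Cd3g or of the pan-leukocyte gene Ptprc. These were 6705 of 7691 barcodes (87.2%) in wild type and 9671 of 11087 (87.2%) in humanized.

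The series profiled single cells of tumours grown from MC38, a mouse colon carcinoma line, in untreated wild-type mice and in FOXP3 humanized mice, which carry a humanized form of the gene for the transcription factor of regulatory T cells. Tumour cells were given to mice 10 weeks old, which were killed on day 20. With 1 cDNA library per genotype, genotype cannot be told apart from library, mouse or tumour, and differences have no replicate behind them. The labels do not say how many mice a library pooled or which part of the gene was humanized.

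The libraries held 134214718 UMIs in wild type and 147738781 in humanized, of which deep barcodes held 129144384 and 140575771. Median depth was 16866 and 12522 UMIs per deep barcode. The labels call the cells immune, isolated on a Percoll gradient. Of 6818 and 9894 barcodes with 5000 or more UMIs, 113 and 223 had a CD3 or Ptprc UMI and were left out by the rule. In those kept, which hold no CD3 or Ptprc UMI by that rule, summed UMIs of 9 macrophage and monocyte markers were 155 and 137, those of 5 B cell markers 15 and 28, and those of 6 dendritic markers 2750 and 1449, led by Cd74 in 5.8% and 3.06% of barcodes. The 8 T cell markers summed to 313 and 306 UMIs, led by Lck, and 5 NK cell markers to 33 and 30. The 5 neutrophil markers summed to 73 and 127 UMIs, with S100a8 at 3 and 33, S100a9 at 4 and 45, and Cxcr2 at 64 and 46. Of the stromal lists, 8 fibroblast markers summed to 53.2 and 50.4 counts per 1000000 UMIs of the same barcodes (CPM), led by Dcn, a collagen-binding proteoglycan found in 28.8% and 22.7% of barcodes. Barcodes with UMIs of 3 or more of those 8 genes were 59 (0.88%) and 41 (0.424%). Of 6 pericyte and smooth muscle markers, Cspg4 made up nearly all UMIs and was in 57.7% and 54.2% of barcodes. The 6 endothelial markers summed to 17.5 and 14.4 CPM, led by Egfl7 in 19.9% and 13.9% of barcodes. The 7 epithelial markers summed to 738 and 435 UMIs, led by Cdh1 in 4.3% and 3.37% of barcodes, with Krt20 and Cdx2 at 0 in both libraries. Cdh1 had 331 and 353 UMIs, whereas Krt18 had 159 and 1, Krt8 129 and 40, Krt19 96 and 40, and Epcam 23 and 1. Each of the latter was in at most 0.507% of barcodes. The deep barcodes are therefore called by their rule here and given no cell type. The libraries shared 1551 barcode names, which are serial labels and not sequences, so shared droplets could not be counted.

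Matrix metalloproteinases are zinc-dependent proteases, secreted or tethered to the membrane, that cut collagens and other matrix proteins and release factors bound to the matrix. Most are made as inactive precursors, and the secreted gelatinase MMP-2 is activated at the cell surface by the membrane-type protease MMP-14 with TIMP-2 as an adaptor. TIMPs bind the active site of these proteases, and in tumours both the malignant and the stromal cells can make them. Genes of stromelysins and collagenases are classic targets of the transcription factor AP-1.

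The upstream sequences of 4 members are shown because the 3 proteases that were nearly undetected share motifs that the window of Sparc, the member with the most UMIs, does not hold. Sparc was picked after the counts were seen, and a link between motifs and levels was not tested. RefSeq windows on GRCm38.p6 were found for 8 of 10 members (Mmp2 and Mmp9 had none), and each run is the 250 bases before the start, 5′ to 3′ on the gene's strand, with the AP-1 motif TGANTCA and the TATA motif TATAAA in capitals. The windows are chr9:7445572-7445821 (plus strand) for Mmp3, chr9:7502092-7502341 (plus) for Mmp10, chr9:7272264-7272513 (plus) for Mmp13 and chr11:55420081-55420330 (minus) for Sparc.
Mmp3: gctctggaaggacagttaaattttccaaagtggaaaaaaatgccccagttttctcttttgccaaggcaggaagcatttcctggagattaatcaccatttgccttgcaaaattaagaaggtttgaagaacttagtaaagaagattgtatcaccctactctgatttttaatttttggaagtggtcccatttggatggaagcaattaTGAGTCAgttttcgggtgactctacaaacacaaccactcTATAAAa
Mmp10: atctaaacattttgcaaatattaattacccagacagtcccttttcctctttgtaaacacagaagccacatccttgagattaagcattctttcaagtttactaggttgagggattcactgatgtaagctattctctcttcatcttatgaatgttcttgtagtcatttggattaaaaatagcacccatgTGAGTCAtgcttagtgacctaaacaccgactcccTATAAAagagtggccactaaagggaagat
Mmp13: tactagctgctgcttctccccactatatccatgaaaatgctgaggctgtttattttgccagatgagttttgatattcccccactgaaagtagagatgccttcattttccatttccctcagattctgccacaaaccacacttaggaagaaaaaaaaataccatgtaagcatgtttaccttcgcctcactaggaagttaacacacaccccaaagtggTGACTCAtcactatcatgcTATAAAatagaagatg
Sparc: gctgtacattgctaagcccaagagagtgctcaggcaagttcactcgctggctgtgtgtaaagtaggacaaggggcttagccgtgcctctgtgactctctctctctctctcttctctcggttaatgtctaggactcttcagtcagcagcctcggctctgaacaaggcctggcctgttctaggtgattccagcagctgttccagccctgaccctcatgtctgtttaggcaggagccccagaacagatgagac
Both motifs were in each of the 3 protease windows. The AP-1 match lay at -46 to -40 in Mmp3, -63 to -57 in Mmp10 and -35 to -29 in Mmp13, counted from the start, and the TATA match at -7 to -2, -29 to -24 and -16 to -11. The start is that of the RefSeq windows and was not checked against these data, so the distances hold for that annotation only. Searched on both strands, AP-1 was in 6.75% and TATA in 12.4% of 32851 windows of the same length. Neither was in the windows of Sparc, Mmp14, Timp1, Timp2 or Timp3, and most of all windows lack each of them. The GC box GGGCGG, present in 32.7% of all windows, occurred once in each of Timp1, Timp2 and Timp3, in 2 places in Mmp14, and in none of Sparc, Mmp3, Mmp10 and Mmp13. The 3 motifs do not overlap one another in any of these windows. Mmp3, Mmp10 and Mmp13 lie in 1 cluster of metalloproteinase genes on chromosome 9, where Mmp12, Mmp1b, Mmp1a, Mmp8, Mmp27 and Mmp20 are their neighbours. As genes of 1 family and cluster, they are not 3 separate cases of shared motifs.

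The deep barcodes carried a gelatinase, its membrane activator, 3 inhibitors and Sparc, while Mmp3, Mmp10 and Mmp13 were at or near 0. Sparc was the one member over 1.5-fold apart, at 1066 CPM in wild type and 1663 CPM in humanized, and higher calls of that size made up 0.641% of all genes compared. Mmp2 stood next, at 188 and 239 CPM. By CPM, the inhibitor genes Timp1, Timp2 and Timp3 were within 1.07-fold between libraries. Another scaling, given below, moved the log2 ratios of Timp1 and Timp2 to 0.33 each. CPM is not divided by transcript length, so a rank or order of genes by CPM or UMIs is one of captured molecules. Intervals are at 95% and cover counting error only.

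**Figure D1:**
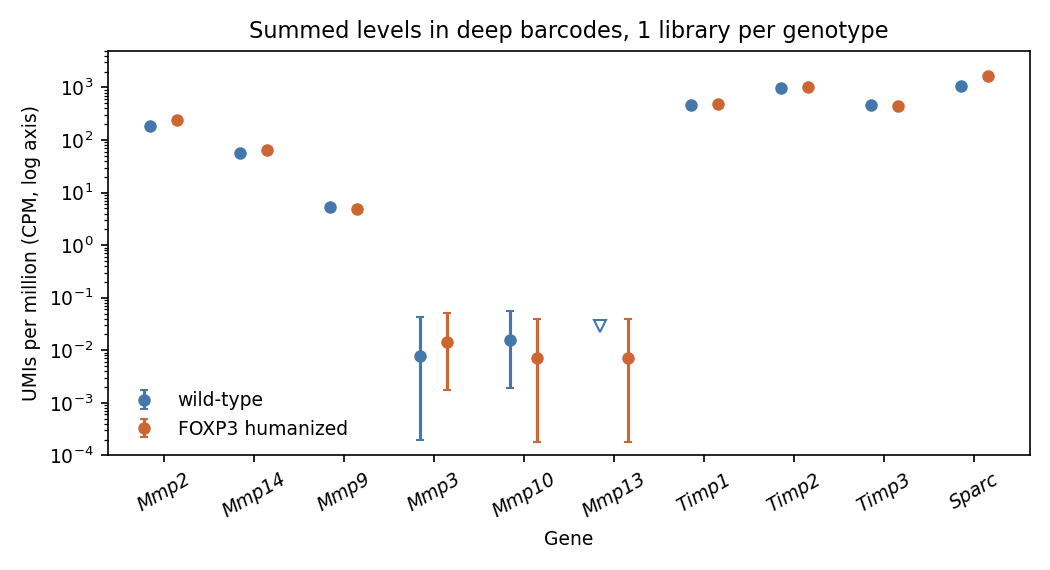
Level of each of the 10 members (CPM on a log axis) in the deep barcodes of the wild-type and humanized libraries, 1 library each, with exact Poisson 95% intervals as bars and an open triangle at the upper limit of Mmp13, which had 0 wild-type UMIs. Sparc reads 1066 and 1663 CPM, the 3 Timp genes nearly coincide between libraries, and Mmp3, Mmp10 and Mmp13 sit below 0.1 CPM.

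Among the proteases, Mmp2 (gelatinase A) had 24340 wild-type UMIs, or 188 CPM (186 to 191), and 33616 humanized UMIs, or 239 CPM (237 to 242). Its humanized over wild-type ratio was 0.34 on the log2 scale (0.32 to 0.37), or 1.27-fold. Mmp14, the membrane protease MT1-MMP, had 7476 and 9106 UMIs. That gave 57.9 CPM (56.6 to 59.2) and 64.8 CPM (63.5 to 66.1), a log2 ratio of 0.16 (0.12 to 0.21). Both proteases of the MMP-2 activation pathway were thus higher in the humanized library by less than 1.5-fold.

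Mmp9 (gelatinase B) had 690 and 700 UMIs, or 5.34 CPM (4.95 to 5.76) and 4.98 CPM (4.62 to 5.36). The interval of its log2 ratio, -0.10, ran from -0.26 to 0.0522 and so held no difference. For background, barcodes with 2 or more CD3 UMIs gave 5.51 and 7.09 CPM of Mmp9, but that set includes deep barcodes. Those under 5000 UMIs in all gave 12.4 CPM in wild type, from 2 of 84 barcodes, and 0 in humanized, from 134. Mmp9 could not be told apart from background in wild type, and in humanized the background had too few barcodes to read. Mmp3 (stromelysin-1) had 1 and 2 UMIs, Mmp10 (stromelysin-2) 2 and 1, and Mmp13 (collagenase-3) 0 and 1, each at or under a floor of 3 counts, so no fold is given. Both wild-type Mmp10 UMIs came from 1 barcode, and 0 of 6705 barcodes with Mmp13 allows a share of barcodes with a UMI of up to 0.0447%, which is no limit on cells expressing it.

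By CPM, the inhibitor genes differed little between libraries. Timp2, which inhibits MMP-2 and also serves in its activation, had 123718 and 142832 UMIs, or 958 CPM (953 to 963) and 1016 CPM (1011 to 1021). Timp1, a broad inhibitor that acts poorly on membrane-type proteases, was at 456 CPM (452 to 459) in wild type and 485 CPM (482 to 489) in humanized. Timp3, an inhibitor that binds the matrix and also acts on ADAM proteases, was at 458 CPM (454 to 462) and 442 CPM (439 to 446). On the log2 scale the ratios were 0.0849 for Timp2, 0.0911 for Timp1 and -0.0504 for Timp3, with intervals excluding 0 at this depth but sizes far under the 1.5-fold rule.

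Sparc, a secreted glycoprotein that binds collagen and takes part in its deposition, had 137604 wild-type and 233816 humanized UMIs. Its level was 1066 CPM (1060 to 1071) against 1663 CPM (1657 to 1670), a log2 ratio of 0.64 (0.63 to 0.65) or 1.56-fold, just past the rule. By captured UMIs it ranked 139 in wild type and 109 in humanized among all genes. Of the 7 members compared, 1 was over 1.5-fold higher in humanized and 0 were lower, against 0.641% of 13730 genes higher and 12.9% lower.

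The median log2 ratio over those 13730 genes was -0.210, so members lay above most genes, which were not matched to them for level. Ratios at or above that of Sparc were held by 0.51% of genes, at or above Mmp2 by 1.8%, Mmp14 by 5.99%, Timp1 by 10.1%, Timp2 by 10.5%, Timp3 by 25.2% and Mmp9 by 32.4%. Scaling by the trimmed mean of M values (TMM) moved the median of all genes to 0.031 and the split of calls from 88 higher and 1771 lower to 245 and 773. Under it Sparc stood at 0.88, Mmp2 at 0.58, just under the 1.5-fold rule, Mmp14 at 0.40, and Timp1 and Timp2 at 0.33 each. TMM turned the sign of Timp3 to 0.19 and of Mmp9 to 0.14.

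The Sparc difference was present at every depth. Barcodes of 5000 to 9999 UMIs (1328 and 3395) gave 1179 and 1754 CPM, a log2 ratio of 0.57, which is under the 1.5-fold rule. Barcodes of 10000 to 19999 UMIs gave 0.59 and those of 20000 or more gave 0.63. For Mmp2 the same 3 bins gave 0.22, 0.25 and 0.32, and for Timp3 -0.20, -0.09 and -0.05. Timp1 gave 0.20, 0.21 and 0.05. These bins were added after the data were seen.

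The other genes of the pathway, taken from lists by function, were called by the same rule, for which all genes gave 0.641% higher and 12.9% lower. Under TMM these shares were 1.78% and 5.63%. Of 5 compared metalloproteinases outside the members, 1 was lower and 0 higher: Mmp23 had 0.519 and 0.285 CPM. Under TMM Mmp24 was also called higher. Mmp11 (stromelysin-3), with the most UMIs of them, had 36.9 and 31.9 CPM, and Mmp28 (epilysin) 3.63 and 3.04 CPM. Of 8 genes of activation and inhibition, 1 was lower, the membrane-anchored inhibitor Reck, at 1.56 and 0.839 CPM. One gene of 8 is near the share of all genes called lower. Bsg, which encodes a membrane inducer of metalloproteinases, had 871 and 1085 CPM, and Cd44, a hyaluronan receptor, 338 and 315 CPM.

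Of 6 genes of plasminogen activation 0 were called. Those with the most UMIs were Anxa2, at 3224 and 3960 CPM, and S100a10, at 3187 and 3746 CPM, which together form a surface receptor for plasminogen and its activator. Among 13 ADAM and ADAMTS proteases, 1 was higher, Adamts7, at 2.42 and 3.71 CPM, while Adam15 had 51.3 and 50.4 CPM. None of 6 cathepsins was called, and Ctsl had 1091 and 1308 CPM. Among 6 matricellular genes 0 were called, with Spp1 (osteopontin) at 533 and 532 CPM.

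Among fibrillar collagen genes, 4 were compared and 1 was higher, Col1a1, at 7.72 and 12.9 CPM. Col3a1 had 48.5 and 70.4 CPM and Col1a2 67.8 and 81.9 CPM, both under the rule, though under TMM Col3a1 was also called higher. The list's median log2 ratio was 0.41, with 4 of 4 above 0, beside -0.210 over all genes and 0.09 over the members. Basement membrane genes had 1 of 6 lower, Lama5, at 19.1 and 10.8 CPM, which was not called under TMM, and 11 collagen-modifying genes had 0 called.

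Of 7 AP-1 subunit genes 0 were called, with Jun at 630 and 639 CPM and Jund at 362 and 358 CPM, and under TMM 1 was higher, Fos. Among 11 NF-kappaB response genes 4 were higher and 0 lower. They were the chemokine genes Cxcl1 (27.9 and 70.3 CPM), Ccl2 (113 and 194 CPM), Cxcl2 (1.1 and 1.86 CPM) and Ccl7 (40.6 and 64.8 CPM, named outside the naming rule to complete the 4). Nfkbia, with the most UMIs, had 314 and 460 CPM and was called higher under TMM alone. Interferon response genes had 4 of 11 lower and 0 higher, against 12.9% and 0.641% of all genes. They were Gbp4 (0.759 and 0.341 CPM), Ifit1 (4.17 and 2.5 CPM), Irgm1 (5.8 and 3.56 CPM) and Psmb8 (114 and 75.1 CPM), and under TMM Gbp4 alone was called. The TGF-beta, hypoxia and G2 and mitosis lists had 0 genes called, and under TMM 3 hypoxia genes were higher. The part of these lists in the levels of the members was not tested.

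To describe the spread between barcodes, each deep barcode was thinned at random to 5000 UMIs, so that depth was equal. At that depth Sparc was found in 94.5% (93.9 to 95%) of wild-type and 97.8% (97.5 to 98.1%) of humanized barcodes. Timp2 was found in 96.9% and 97.4%, Timp1 in 76.6% and 80.7%, and Timp3 in 71.9% and 72%. Mmp2 was found in 55.8% and 64.5%, Mmp14 in 23.9% and 26.4%, and Mmp9 in 2.51% and 2.25%. Without thinning, the shares were 86.4% and 87.7% for Mmp2, 55.1% and 50.1% for Mmp14, and 8.35% and 6.24% for Mmp9. The order of the libraries for Mmp14 thus turned with depth, and the thinned order matched that of the CPM.

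Droplets can also hold free RNA, so the shares were set beside those of barcodes with 2 or more CD3 UMIs and under 5000 UMIs in all, which numbered 84 and 134 with median depths of 1796 and 1568. At 1000 UMIs per barcode, Sparc was found in 7.14% and 11.9% of these against 58.8% and 72.9% of deep barcodes. Timp2 was found in 26.2% and 17.2% against 58.7% and 61.1%, and Timp3 in 8.33% and 5.22% against 31.7% and 30.9%. Mmp2 stood at 4.76% and 3.73% against 17.1% and 21.7%. Timp1 stood at 5.95% and 3.73% against 31.2% and 34.9%. Mmp14 stood at 0 (interval up to 4.3%) and 0.746% (up to 4.09%) against 5.68% and 6.48%. These 6 members were found more often in deep barcodes in both libraries, whereas Mmp9 had 2.38% and 0 (up to 2.72%) against 0.582% and 0.693%.

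The Sparc difference ran through the whole distribution. The thinned count had a median of 4 UMIs in wild type and 7 in humanized, with 1 and 2 at the 10th percentile, 11 and 16 at the 90th, and 21 and 29 at the 99th. Barcodes with 10 or more Sparc UMIs were 15.2% and 34.6%. The barcode with the most Sparc held 0.185% and 0.1% of its UMIs. The 2 distributions overlapped over most of their range.

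**Figure D2:**
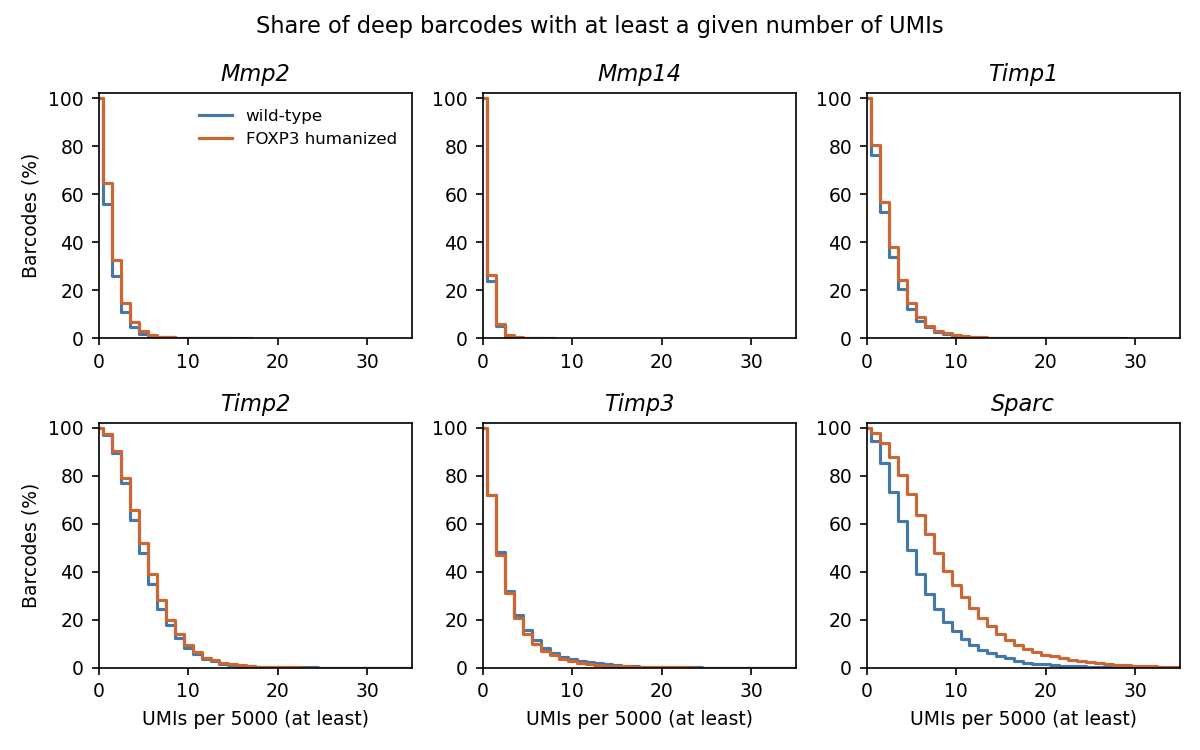
Share of deep barcodes (y axis, percent) with at least a given number of UMIs of the gene after thinning to 5000 UMIs (x axis), for 6 members in wild type and humanized. The Sparc curve sits to the right in humanized, with medians of 4 and 7 UMIs, whereas those of Timp3 share a median of 1 UMI and a long tail.

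Timp3 and Sparc had the highest Fano factors of the members. The Fano factor, the variance over the mean of thinned counts, is near 1 when sampling alone spreads the counts and tends to be higher for genes with higher means. Timp3 had 4.22 in wild type and 3.6 in humanized, where genes of like mean had medians of 1.34 and 1.32, and 2.97% and 5.26% of those genes were at or above it. The median barcode had 1 Timp3 UMI, yet the 99th percentile was 15 and 13 UMIs. The 10% of barcodes highest for Timp3 held 40.7% and 39.4% of its UMIs, against 24.1% and 23.4% for Timp2.

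Sparc had Fano factors of 3.72 and 4.55, where 33 and 14 genes of like mean had medians of 2.02 and 2.66. Timp1 had 2.22 and 2.21, and Timp2 had 2.23 and 2.12, the latter near the medians of 1.93 and 1.86 for its level. Mmp2 had 1.68 and 1.55, Mmp14 1.26 and 1.25, and Mmp9 1.11 and 1.08. Against genes of like mean, 6.05% and 5.92% were at or above Mmp14 and 3.03% and 7.14% at or above Sparc, so the order depends on the measure. By the SD over the mean, Sparc (0.822 and 0.73) was below Mmp14 (2.03 and 1.92), Timp3 (1.33 and 1.27) and Mmp2 (1.28 and 1.11). With 2 or more in both libraries, 4 of the 5 members with a mean of at least 1 UMI were called, against 25.1% of 541 genes of that level and 1.3% of 13726 genes. Without the 1% of barcodes highest for each gene, Timp3 and Sparc were the 2 left, so Timp1 and Timp2 were no longer called.

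**Figure D3:**
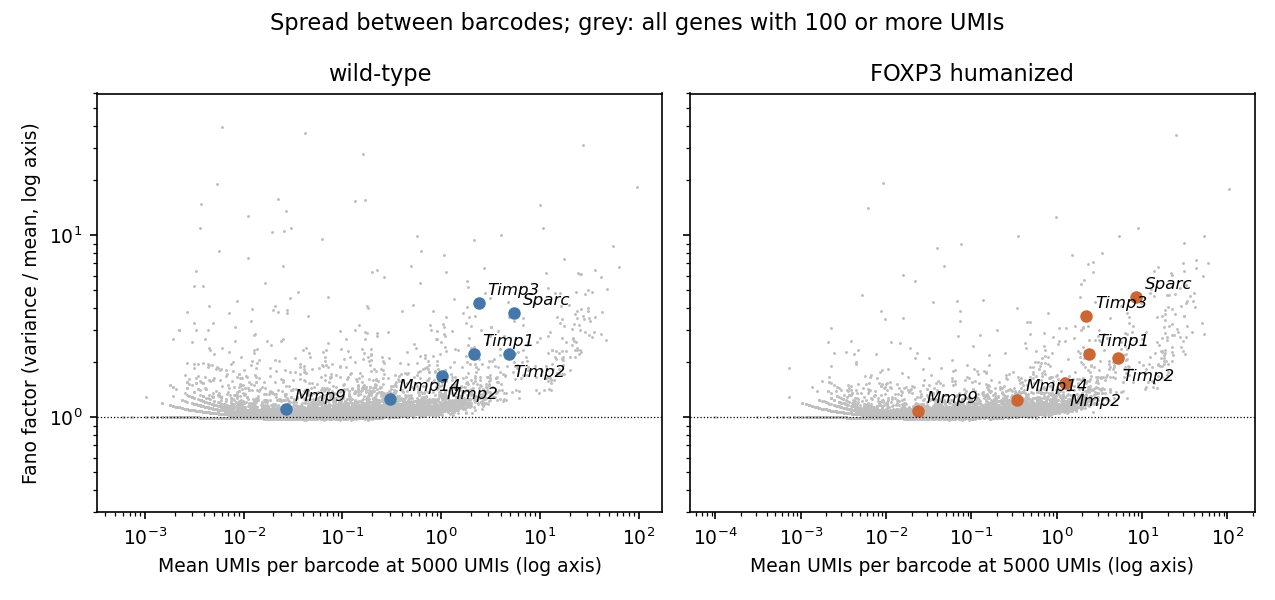
Fano factor against mean thinned UMIs per deep barcode (both axes logarithmic) for each gene with 100 or more UMIs (grey) and for the members (coloured), in each library. Timp3, at 4.22 and 3.6, and Sparc, at 3.72 and 4.55, stand above most genes of like mean, and Mmp9 and Mmp14 have lower factors at lower means.

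Correlations across barcodes were taken as Pearson r of log-transformed thinned counts, over 6705 and 9671 barcodes that share a library, thinned depth and sampling noise, so they are given as a description. Timp3 and Sparc had the highest r of any pair, 0.37 in wild type and 0.33 in humanized. Timp2 and Sparc followed with 0.27 and 0.30, and Timp1 and Sparc had 0.19 and 0.25. Timp2 and Timp3 had 0.20 and 0.18.

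Mmp2 was correlated with Sparc (0.20 and 0.21), Timp3 (0.20 and 0.17), Timp2 (0.15 and 0.16) and Mmp14 (0.12 and 0.12), but not with Timp1 (-0.0787 and -0.0616). Of the 15 pairs among the 6 members with at least 0.25 thinned UMIs, 8 had r of 0.1 or more in both libraries. Among all 2410110 pairs of genes with that minimum, the share was 0.664%. These pairs were not matched for mean. A mean of 1 UMI or more was reached by 5 of the 6 members but by only 541 genes in all, so the shares are not like for like. Correlations of the members with barcode depth lay between -0.081 and 0.095. With the mitochondrial share, Timp3 had the highest, 0.13 and 0.11.

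**Figure D4:**
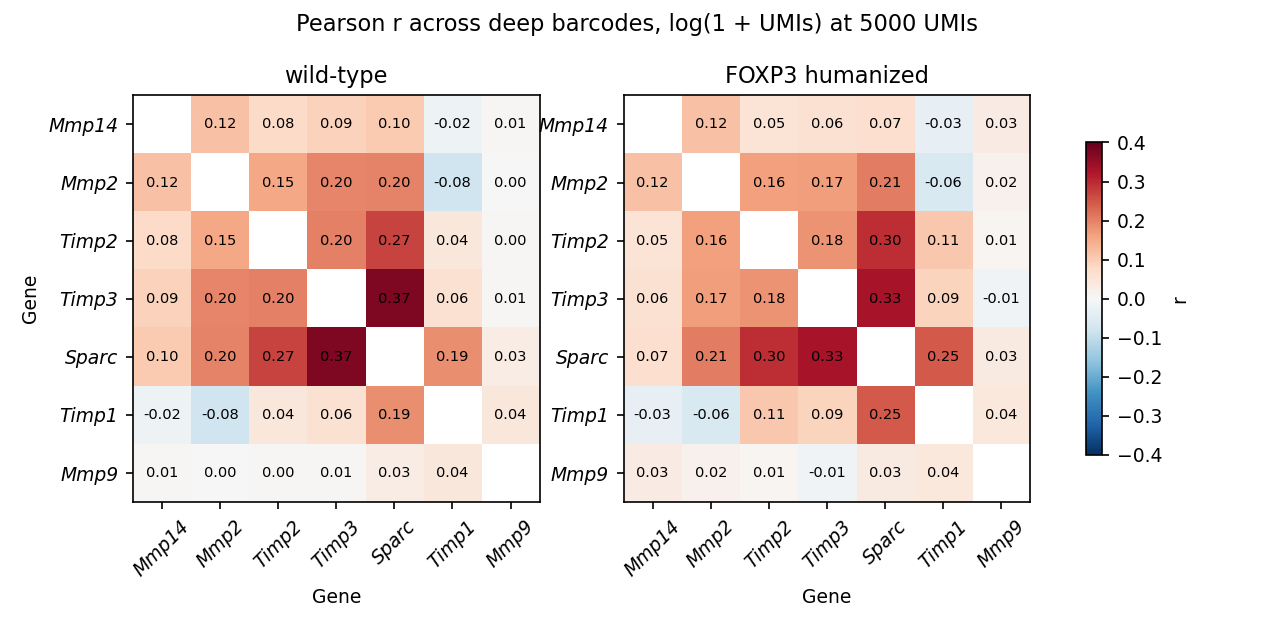
Pearson r of log-transformed thinned counts for each pair of the 7 compared members over 6705 wild-type and 9671 humanized deep barcodes. Sparc pairs with the Timp genes at 0.19 to 0.37, and Mmp2 with Timp1 lies slightly below 0.

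All 3 genes of the MMP-2 activation complex (Mmp14, Timp2 and Mmp2) were found together in 977 wild-type barcodes, 14.6% (13.7 to 15.4%), and in 1760 humanized barcodes, 18.2% (17.4 to 19%). The product of the 3 shares was 12.9% and 16.6%. Mean Mmp2 in barcodes with Mmp14 was 1.26 and 1.49 UMIs, against 0.941 and 1.16 in those without.

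For each member the genes most like it over barcodes were ranked by the lower of the 2 libraries' r, among 12080 genes. For Sparc these were Anxa2 (0.37 and 0.44), Ly6a (0.36 and 0.36), Crip1 (0.34 and 0.37) and Ecm1 (0.34 and 0.39), and then Timp3. For Timp3 they were Sparc, Anxa2 (0.29 and 0.31), Ahnak (0.27 and 0.26), Ecm1 (0.25 and 0.24) and the secreted glycoprotein gene Fstl1 (0.26 and 0.23). For Timp2 they were Ecm1 (0.28 and 0.29), Sparc, Anxa2, S100a4 and Timp3. Ecm1, which encodes an extracellular matrix protein, and Anxa2 were thus in the lists of Sparc, Timp3 and Timp2.

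Timp1 had another list, led by the galectin gene Lgals1 (0.32 and 0.35), S100a6 (0.29 and 0.32), Eif5a (0.26 and 0.27), Tnfrsf12a (0.26 and 0.25) and Actb (0.29 and 0.25). Mmp2 was most like Sparc, Ly6c1 (0.21 and 0.20), Col6a1 (0.21 and 0.19), Timp3 and Ly6a. Mmp14 was most like Mmp2 and then the chaperone genes Hsp90ab1 (0.11 and 0.11) and Hsp90aa1 (0.09 and 0.11), Ahnak and Cmss1. For Mmp9 the genes were Upp1, Lgals1, Psme2, Ccnd1 and Wnt10a, every r at most 0.08, too weak to read in counts this sparse.

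Barcodes were then split by the summed thinned UMIs of 6 fibrillar collagen genes, none of them a member. The highest-scoring barcodes, at most 10% of a library, were 614 in wild type (9.16%, 3 or more UMIs) and 604 in humanized (6.25%, 4 or more). Of these, 294 and 281 were at the threshold itself, so the groups differ in threshold and share between the libraries. Timp3 was at 987 CPM in them against 412 CPM in the others in wild type, and at 892 against 416 CPM in humanized. The log2 differences were 1.26 and 1.10. Both were larger than the log2 ratio of Timp3 between the libraries, -0.0504. The contrasts are unlike, since the split sets chosen barcodes against the rest and the ratio sets whole libraries against each other.

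Sparc was at 2011 against 983 CPM in wild type and at 2928 against 1589 CPM in humanized, log2 differences of 1.03 and 0.88. For Mmp2 the values were 350 against 174 CPM and 378 against 231 CPM. Mmp14 was at 86 against 55.4 CPM and 95.6 against 63 CPM. Timp2 differed by 0.42 and 0.36, and Timp1 by 0.08 and 0.22. The collagen-high barcodes were shallower, with medians of 14726 UMIs against 17016 in wild type and 10709 against 12628 in humanized, and the part of depth was not tested.

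Within collagen-high barcodes, cut at different UMIs in the 2 libraries, the Sparc ratio of humanized over wild type was 0.54 on the log2 scale, and in the others 0.69. Among barcodes with fewer than 3 fibroblast marker genes it was 0.65, on 1061 and 1660 CPM. The 59 and 41 barcodes with 3 or more gave 1370 and 2189 CPM, or 0.68. Mmp14 in those few barcodes was lower in humanized, at 105 and 62.5 CPM on 191 and 56 UMIs (log2 -0.75, -1.21 to -0.316), opposite to the rest. Barcodes with 3 or more marker genes were deeper, with medians of 26447 and 19474 UMIs against 16805 and 12504, and the part of depth was not tested.

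**Figure D5:**
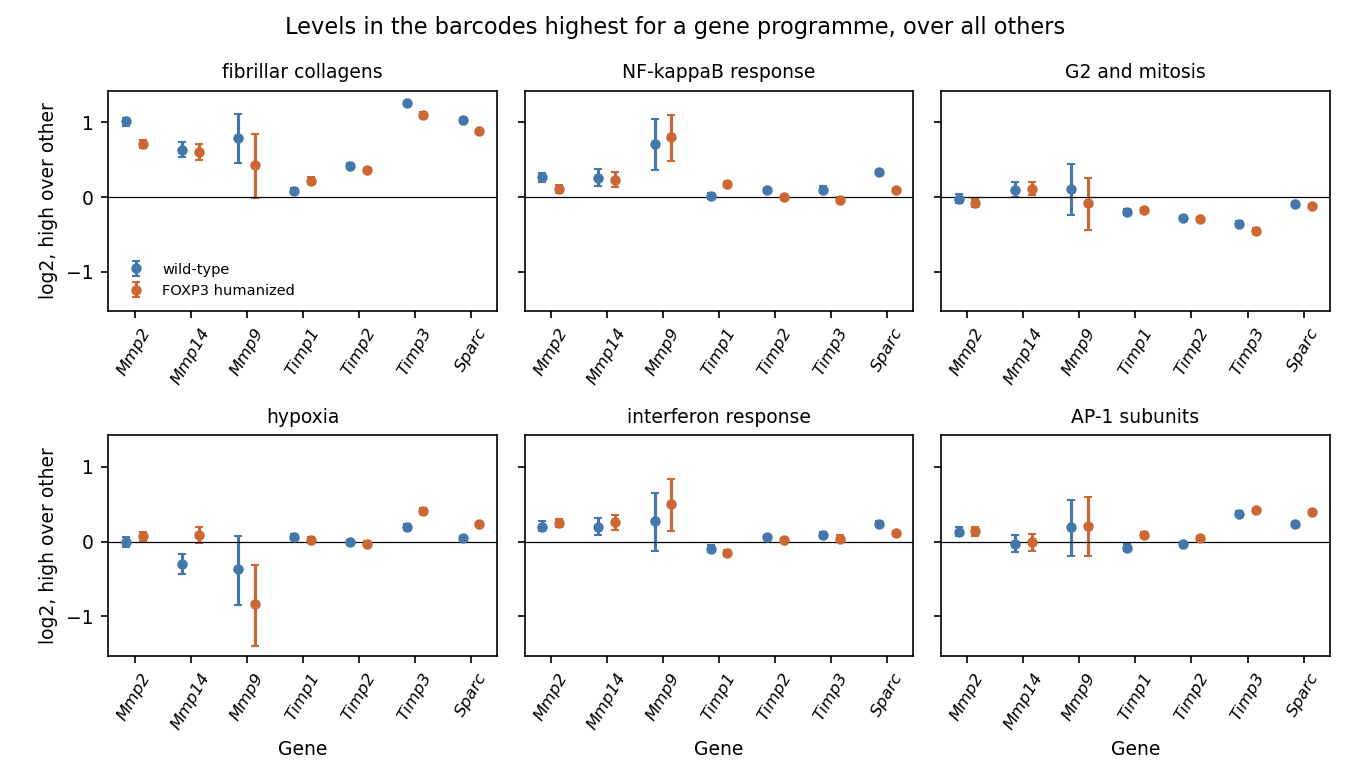
Log2 ratio of each member's CPM in barcodes highest for a gene programme over the other deep barcodes, for 6 programmes and each library, with exact 95% intervals as bars. Timp3, Sparc and Mmp2 stand highest for fibrillar collagens (1.26, 1.03 and 1.01 in wild type), and the summed levels of the Timp genes lie below 0 for G2 and mitosis.

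In barcodes highest for G2 and mitosis genes, summed levels of all 3 inhibitor genes were lower. Timp3 was at 365 against 470 CPM in wild type and 334 against 457 CPM in humanized, Timp2 at 808 against 978 and 850 against 1039 CPM, and Timp1 at 402 against 463 and 435 against 492 CPM. Mmp2, at 186 against 189 CPM and 228 against 241 CPM, differed by at most 0.08 on the log2 scale. Sparc was also lower, by -0.09 and -0.12 on that scale, whereas Mmp14 differed by 0.10 and 0.11. Across all deep barcodes r with the score was -0.19 and -0.15 for Timp2 and -0.15 and -0.15 for Timp3, but 0.028 and 0.012 for Timp1, so for Timp1 the measures differ in sign. The mitosis-high barcodes were deeper, with medians of 22821 against 16493 UMIs and 15492 against 12234 UMIs, and the part of depth was not tested.

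In barcodes highest for NF-kappaB response genes, Mmp9 was at 8.33 against 5.09 CPM in wild type (log2 0.71, 0.366 to 1.04) and 8.11 against 4.67 CPM in humanized (0.80, 0.479 to 1.1). Mmp9 had the same order in both libraries, on few UMIs, and its r with the score was 0.028 and 0.048. That order was not particular to this list. Mmp9 differed by 0.79 and 0.43 for fibrillar collagens and by 0.27 and 0.50 for interferon response genes. It differed by -0.37 and -0.83 for hypoxia, 0.19 and 0.21 for AP-1 subunits, and 0.11 and -0.08 for G2 and mitosis. Some of these intervals held no difference. For hypoxia genes, Timp3 differed by 0.19 and 0.41. For AP-1 subunits, Timp3 differed by 0.37 and 0.42 and Sparc by 0.24 and 0.39.

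Some members overlap another gene in the annotation, and no source used here says whether counting used strand, so reads there cannot be told apart. Timp1 lies within Syn1, which had 6828 wild-type and 3891 humanized UMIs, 11.6% and 5.7% as many as Timp1, and r with Timp1 of 0.01 and 0.03. Timp3 overlaps Syn3, with 1207 and 1360 UMIs, which is 2.04% and 2.19% as many as Timp3.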

How the data were processed

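Single cells were captured in droplets on a DNBelab C instrument and sequenced as 1 cDNA library per genotype, per the labels' protocols. The values used are the deposited UMI counts, not normalized, from matrices that PISA 1.0 made per the file headers, and the submitters' processing notes name the build GRCm39. The labels and headers read here name no aligner, annotation, rule for calling cells or strand setting. The oligo libraries were not analysed here. No doublet caller was run and 0 deep barcodes had over 10% mitochondrial UMIs.

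Counts were summed over deep barcodes and scaled to CPM, with exact Poisson intervals, exact conditional intervals for ratios and exact binomial (Clopper-Pearson) intervals for shares. No test was run, since each genotype had 1 library. A gene was called when its levels were 1.5-fold apart and the interval of the ratio left out equality, among genes with 100 or more summed UMIs. Thinning used 1 fixed seed. Python 3.11.15 (numpy 2.4.6, scipy 1.17.1, pandas 2.3.3) was used, and edgeR 4.0.16 in R 4.3.3 for TMM factors. The code was tested on simulated data. Gene names neighbouring or overlapping members came from RefSeq on GRCm38, a build other than that of the counts.

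The members and lists were chosen with earlier results of these data known. From each list the naming rule allows genes past the rule, at most 3 each way, and up to 2 with the most UMIs, plus the 5 genes most like each member; not all of these are printed. Ccl7, Fos, Mmp24, the markers and the genes overlapping members stand outside it. Alternatives changed the scaling, the depth minimum, the exclusion by CD3 and Ptprc, the thinning and the barcodes kept.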

Additional observations from a re-analysis of the deposited data

How the results depend on the processing

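No paired analysis was possible because each genotype had 1 library. Over 13 alternatives, the log2 ratio of Sparc ran from 0.57 to 0.88, Mmp2 from 0.22 to 0.58, Mmp14 from 0.04 to 0.40, Timp1 from 0.05 to 0.33, Timp2 from 0.02 to 0.33, Timp3 from -0.20 to 0.19 and Mmp9 from -0.18 to 0.27. Among these, leaving out barcodes over 10% mitochondrial removed 0 barcodes, so it could not differ from the main setting. With only barcodes of 5000 to 9999 UMIs, a setting chosen after seeing the data, 0 members were 1.5-fold higher, since Sparc stood at 0.57; the cause was not tested. The 4 members with a Fano factor of 2 or more became 2 with counts scaled to 5000 UMIs in place of thinned. They also became 2 without the top 1% of barcodes, and Timp3 and Sparc were left in each case. Scaling counts down lowers the Fano factor by itself, so the cutoff of 2 is stricter there. The other counts stayed within 1.5 times.

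Over all genes, 88 higher and 1771 lower became 245 and 773 with TMM, 60 and 1050 with thinned barcodes, 50 and 780 in barcodes of 5000 to 9999 UMIs, and 87 and 1155 in those of 10000 to 19999. Under TMM, 1 of 11 interferon response genes was lower in place of 4. Depth limits what can be said of Mmp3, Mmp10 and Mmp13.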

Other observations

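Some genes ran opposite to the members across deep barcodes. They were ranked after the data were seen and are given as values only. The metallothionein genes Mt1 and Mt2, which encode metal-binding proteins, had r of -0.30 and -0.26 with Timp1 in wild type and -0.29 and -0.25 in humanized. Sparc ran opposite to the non-coding RNA genes 2410006H16Rik (-0.31 and -0.39) and Zfas1 (-0.31 and -0.34). The chromatin gene Hmgb2 had -0.22 and -0.16 with Timp2 and -0.16 and -0.13 with Timp3. For Mmp2 the lowest was Ran, a nuclear transport GTPase gene, at -0.14 and -0.17.

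Syn1, the gene that overlaps Timp1, differed between the libraries while Timp1 did so by 1.07-fold. It had 52.9 CPM in wild type and 27.7 CPM in humanized, a log2 ratio of -0.93 (-0.99 to -0.88).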
